A study of Mus musculus with 2 samples.

Results

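Trem2, Tyrobp, Cd9, Gpnmb, Mmp12, Lgals3 and Capg belong to the programme by which lipid-associated macrophages (MØs) of obese fat are recognised. These genes were taken by symbol from the gene tables of both libraries and make up 7 of the 27998 genes listed there. Their levels and their co-detection in single cells were followed across MØ subtypes, monocytes and dendritic cells (DCs) of visceral adipose tissue (VAT), in calorically restricted (CR) and in obese mice.

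Live CD45+ leukocytes were sorted from the perigonadal VAT of perfused male C57BL/6J mice, bought at 6 weeks of age, and each group gave 1 droplet library in which every captured RNA molecule is counted through its unique molecular identifier (UMI). Both the CR mice and the obese mice had been fed for 24 weeks on a diet whose fat supplied 60% of calories and whose cholesterol content was 0.3%, and both had weekly injections of 5 mg/kg of an antisense oligonucleotide against the LDL receptor, so the obese comparison group was hyperlipidaemic as well. The CR mice were then given 70% of their ad libitum intake of the same diet for 2 weeks. The diet label of the CR library speaks of life-long restriction, and the study's methods were followed here. The number of mice behind a library was not given in the sources used here, so neither group has replicates, and every interval below is an exact 95% interval for counting error alone.

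Trem2 is a surface receptor of myeloid cells that binds lipids and lipoproteins and signals through Tyrobp (DAP12), an adaptor that many other myeloid receptors share. In obese fat, MØs with this programme gather around dying adipocytes, take up and digest lipid, and depend on Trem2 to form. Cd9 is a tetraspanin of the plasma membrane and Gpnmb a transmembrane glycoprotein of endosomes and lysosomes that is induced under lysosomal stress. Mmp12 is the secreted macrophage elastase, Lgals3 encodes galectin-3, a lectin that also marks damaged lysosomes, and Capg caps actin filaments.

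In the mouse genome build GRCm38 the protein-coding genes lie at chr17:48346401-48354147 (Trem2, plus strand), chr7:30413760-30417585 (Tyrobp, plus strand), chr6:125460266-125494791 (Cd9, minus strand), chr6:49036546-49070929 (Gpnmb, plus strand), chr9:7344381-7369499 (Mmp12, plus strand), chr14:47367751-47386160 (Lgals3, plus strand) and chr6:72544391-72562983 (Capg, plus strand). The RefSeq promoter table for GRCm38 held 7 promoters of 6 of these genes, 2 of them for Mmp12. The 100 bases before the start of Trem2, of Gpnmb and of both Mmp12 promoters are shown because Trem2 names the programme and because Gpnmb and Mmp12 moved together in the data below. All are on the plus strand, at chr17:48346301-48346400, chr6:49036418-49036517, chr9:7344297-7344396 and chr9:7347274-7347373, and capitals mark matches to the motifs searched.
Trem2 promoter: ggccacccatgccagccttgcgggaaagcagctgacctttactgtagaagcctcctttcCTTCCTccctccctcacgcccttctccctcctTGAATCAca
Gpnmb promoter: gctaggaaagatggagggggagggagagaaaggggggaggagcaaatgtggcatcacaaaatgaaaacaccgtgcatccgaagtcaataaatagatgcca
Mmp12 first promoter: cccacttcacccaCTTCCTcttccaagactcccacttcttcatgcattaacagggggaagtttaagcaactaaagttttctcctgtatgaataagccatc
Mmp12 second promoter: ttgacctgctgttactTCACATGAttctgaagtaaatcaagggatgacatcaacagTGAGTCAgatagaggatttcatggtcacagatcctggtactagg
In the 250 bases before the start, searched on both strands, the AP-1 motif TGANTCA stood 9 bases before the start of Trem2 and 44 before that of the second Mmp12 promoter, against 6.75% of 32851 promoters that hold it. The ETS core AGGAAG stood 41 bases before the start of Trem2, 87 before that of the first Mmp12 promoter and 203 before that of Cd9, and 29.5% of promoters hold it. The M-box TCATGTGA of MiT/TFE factors, the lysosomal regulators that include Mitf and Tfeb, stood 84 bases before the start of the second Mmp12 promoter and in 0.846% of all promoters. The E-box CACGTG of these factors, in 6.02% of all promoters, was in none of the 7.

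The CR library held 3562 barcodes and 19696476 UMIs, and the obese library 5795 barcodes and 42948242 UMIs. After cells more than 3 scaled median absolute deviations (MADs) above their library's median mitochondrial share or UMI count were removed, 2987 CR cells (83.9%) and 5262 obese cells (90.8%) remained, with medians of 4802 and 6740.5 UMIs. The mitochondrial limit alone, 5.58% of UMIs in the CR library and 4.84% in the obese library, removed 554 CR and 464 obese cells. The libraries shared 28 barcodes. Fibroblast markers, which leukocytes lack, summed to 181 CPM (each gene's UMIs scaled to a library total of 1e+06) in the lipid-associated MØs of CR mice and to 22.9 CPM in those of obese mice, and every other gate below also had more of them in the CR library. The part of such free RNA in the results was not tested.

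Cells were gated by summed marker genes, none of which is one of the 7. MØs carried at least 40 UMIs per 10000 of markers such as C1qa, Adgre1 and Csf1r, and the lipid-associated gate took those with at least 60 per 10000 of 8 genes (Lpl, Atp6v0d2, Ctsk, Spp1, Fabp5, Acp5, Cd63 and Plin2). It held 153 of 892 CR MØs (17.2%, 14.7 to 19.8) and 763 of 2486 obese MØs (30.7%, 28.9 to 32.5). MØs high in Fcgr4, an Fc receptor, made up 50% of CR MØs (446 cells) and 7.36% of obese MØs (183 cells). Resident MØs (Lyve1, Folr2, Timd4) numbered 51 and 322, cycling MØs 53 and 172, and MØs of no subtype gate, called other MØs, 189 and 1046, CR first. The cycling gate took its cells first, and 11 of its 53 CR and 55 of its 172 obese cells also reached the lipid-associated limit. The gate is a cut on a continuous score: 193 CR and 460 obese MØs lay at 40 to 60 per 10000, and 87 CR and 354 obese MØs at 60 to 90. Genes of the score themselves differed between libraries and gates. Spp1 was 1451 CPM in CR and 294 CPM in obese cells of the gate, and Acp5 was 666 and 540 CPM in Fcgr4-high MØs. CR and obese cells could thus reach the limit through different genes, which bears on the gate's shares and on the ratios inside it.

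All of the 7 genes except Tyrobp were highest in the lipid-associated gate of both libraries or, for Mmp12 in CR mice, second there to cycling MØs, whose value came from a single cell, whereas Tyrobp was general to myeloid cells. The receptor Trem2 reached 1133 CPM (1079 to 1189) in CR and 1388 CPM (1362 to 1414) in obese lipid-associated MØs. It was 567 CPM in CR and 798 CPM in obese cycling MØs, 332 and 392 CPM in other MØs, 324 and 346 CPM in resident MØs, and 112 and 116 CPM in Fcgr4-high MØs. Resident and other MØs did not separate in Trem2 in the CR library beyond counting error. Classical monocytes (Ly6c2, Ccr2) had 151 CPM in CR and 127 CPM in obese mice, and patrolling monocytes (Treml4, Ace) 63.9 and 94.2 CPM. T cells, which do not express Trem2, carried 44.0 CPM in CR and 49.6 CPM in obese mice, so cDC1 (25.5 and 32.2 CPM) lay below that background.

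Tyrobp varied less among MØs and monocytes than its receptor. It was 3317 CPM (3225 to 3412) in CR and 3847 CPM (3805 to 3890) in obese lipid-associated MØs, 3426 and 3883 CPM in Fcgr4-high MØs, and 3648 and 4553 CPM in patrolling monocytes, where it was highest. Cycling MØs had 2145 CPM in CR and 2384 CPM in obese mice. Among DCs it was 2277 CPM in CR and 2398 CPM in obese cDC2, and 861 and 989 CPM in cDC1. The adaptor therefore did not follow its receptor: Trem2 was 3.28 (CR) and 3.53 (obese) log2 units higher in lipid-associated than in Fcgr4-high MØs, and Tyrobp -0.05 and -0.01.

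The 2 membrane proteins differed in how widely they were found. Among the MØ gates, Gpnmb was high only in the lipid-associated and cycling ones, and part of the cycling cells also reached the lipid-associated limit. It was 624 CPM (584 to 666) in CR and 899 CPM (878 to 919) in obese lipid-associated MØs and 299 and 468 CPM in cycling MØs. Cells of no gate held 651 of its 2188 UMIs in kept CR cells and 1827 of 11282 in kept obese cells. Elsewhere among MØs it was 46.5 to 78.4 CPM in CR and 22.3 to 83.5 CPM in obese mice, beside 50.4 and 31.1 CPM in T cells. Other MØs of obese mice (83.5 CPM) were above that background, and Fcgr4-high MØs (46.5 CPM in CR, 22.3 CPM in obese) were not. Cd9 was 838 CPM (792 to 886) in CR and 906 CPM (885 to 927) in obese lipid-associated MØs, but also 412 and 453 CPM in cDC1 and 303 and 406 CPM in patrolling monocytes. It was lowest in Fcgr4-high MØs, at 34.2 CPM in CR and 53.4 CPM in obese mice, under the 103 and 90.9 CPM of T cells.

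Of the 2 secreted proteins, Lgals3 was abundant in every MØ and Mmp12 rare. Lgals3 was 8236 CPM (8089 to 8384) in CR and 10517 CPM (10446 to 10588) in obese lipid-associated MØs, and still 4148 and 3757 CPM in Fcgr4-high MØs, its next highest gate among those that do not cycle. T cells held 602 CPM in CR and 844 CPM in obese mice. Mmp12 was 372 CPM (341 to 404) in CR and 430 CPM (416 to 444) in obese lipid-associated MØs, against 80.7 and 59.6 CPM in other MØs. The actin-capping gene Capg was 1348 CPM (1289 to 1408) in CR and 1573 CPM (1545 to 1600) in obese lipid-associated MØs. It was 695 and 679 CPM in classical monocytes and 185 and 286 CPM in Fcgr4-high MØs, below the 471 and 624 CPM of B cells. In cDC1 it was 30.4 CPM in CR and 44.0 CPM in obese mice, so the B cell level is not a floor for Capg.

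**Figure D1:**
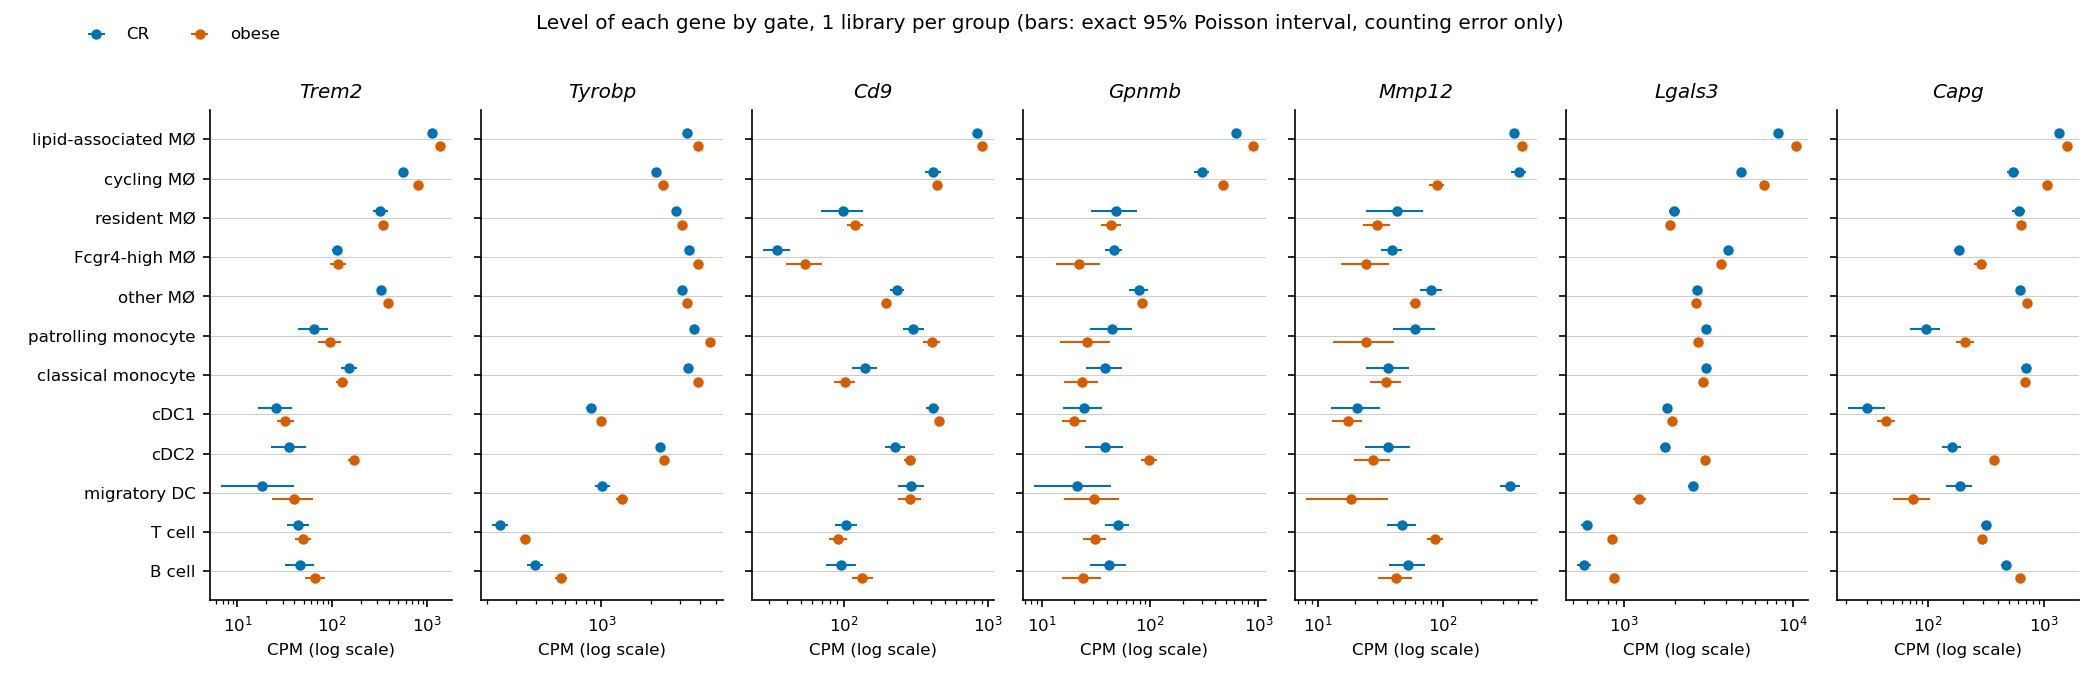
Level of each gene in CPM (log axis) by gate, with CR (blue) above obese (orange) and bars for the exact 95% Poisson interval, 1 library per group. The lipid-associated row is furthest right for Trem2 (1133 CPM in CR, 1388 CPM in obese), Cd9, Gpnmb, Lgals3 and Capg, while Tyrobp spans a narrower range than Trem2 over MØs and monocytes.

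Ordered by how far they set lipid-associated MØs apart from other MØs of the same library, Gpnmb came first (2.92 log2 units in CR, 3.35 in obese), then Mmp12 (2.14 and 2.75), Cd9 (1.83 and 2.18), Trem2 (1.76 and 1.81), Lgals3 (1.60 and 1.97), Capg (1.11 and 1.14) and Tyrobp (0.10 and 0.20). The order in CR and in obese mice differed only in the places of Lgals3 and Trem2. Of the UMIs in kept cells, the lipid-associated gate held 47.2% of those of Trem2 in the CR library and 56.3% in the obese library. For Gpnmb these shares were 41.7% and 64.6%, and for Tyrobp 14.4% and 28.9%. Over all barcodes, with no filter, they were 48.9% and 57.1% for Trem2, 56.6% and 67.8% for Gpnmb and 15.5% and 29.6% for Tyrobp.

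Mmp12 and Gpnmb were carried by few cells even there. The 4 top cells of the 153 in the CR gate held at least 50% of its Mmp12 UMIs, and 14 of the 763 in the obese gate did so. For Gpnmb it took 8 CR and 36 obese cells, and for Trem2 25 CR and 165 obese cells. The median lipid-associated MØ had 0 Mmp12 UMIs in both libraries and 74.7 CPM of Gpnmb in CR and 165 CPM in obese mice, while its Trem2 was 921 CPM in CR and 1223 CPM in obese mice.

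Over all gated MØs, all 7 genes had lower CPM in CR than in obese mice. Gpnmb was 208 CPM in CR and 431 CPM in obese mice, a log2 ratio of CR over obese of -1.03 (-1.12 to -0.95, with 5 CPM added to each side). It was the only one of the 7 past 2-fold, where 0.953% of the 2727 genes measured were lower by 2-fold or more. Trem2 was 443 CPM in CR and 801 CPM in obese mice, a log2 ratio of -0.85 (-0.90 to -0.79). Capg had a log2 ratio of -0.81, Cd9 of -0.69, and Lgals3 and Mmp12 of -0.36 each. Tyrobp had the smallest, -0.11, at 3188 CPM in CR and 3434 CPM in obese mice. The median of the 7 was -0.69, against 0.10 for all genes measured.

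The sizes of the 5 MØ gates and the levels inside them were then exchanged between the libraries, as arithmetic. The lipid-associated gate supplied 23.0% of MØ UMIs in CR and 38.5% in obese mice, and the Fcgr4-high gate 42.2% and 4.27%. With the CR gate sizes and the obese levels inside each gate, the log2 ratio of Trem2 would be -0.58, and with the obese sizes and the CR levels -0.29. The sizes alone gave -0.64 for Gpnmb, -0.62 for Mmp12, -0.61 for Cd9, -0.48 for Capg, -0.22 for Lgals3 and 0.06 for Tyrobp. The levels alone gave -0.49 for Gpnmb, -0.27 for Capg and for Lgals3, -0.16 for Tyrobp, -0.05 for Cd9 and 0.13 for Mmp12. In the CR cycling gate 1 cell held 198 of the 220 Mmp12 UMIs, and without the top cell of each gate and library the levels alone gave -0.30 for Mmp12, -0.69 for Gpnmb and -0.17 for Cd9. For Cd9 most of the difference thus went with the gate sizes, and for Tyrobp it went with the levels. These are the sizes left by the cell filter, which was uneven. It took 42.5% of CR lipid-associated and 7.08% of CR Fcgr4-high MØs, against 17.4% and 2.14% in obese mice.

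Within the lipid-associated gate no gene of the 7 passed 2-fold, in a gate where 0.196% of 2553 measured genes were lower and 1.65% higher by 2-fold or more. All 7 log2 ratios lay below 0: Gpnmb -0.52 (-0.62 to -0.42), Lgals3 -0.35 (-0.38 to -0.33), Trem2 -0.29 (-0.37 to -0.22), Capg -0.22 (-0.29 to -0.15), Tyrobp -0.21 (-0.26 to -0.17), Mmp12 -0.21 (-0.34 to -0.08) and Cd9 -0.11 (-0.20 to -0.03). Their median was -0.22, beside 0.07 over all genes measured. Lipid-associated MØs of CR mice thus still carried every gene of the programme, at levels from 0.694 times (Gpnmb) to 0.925 times (Cd9) those of obese mice. The mix of cells at the gate's score differed, however. Of the 164 CR MØs that reached it, cycling ones included, 37 also passed the Fcgr4-high limit, against 13 of 818 obese ones.

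The signs of Gpnmb and Mmp12 depended on the cells removed for a high mitochondrial share, which took 42.5% of the CR lipid-associated gate (113 of 266 cells) and 17.4% of the obese one (161 of 924, 1 of them removed for its UMI count). Other gates lost cells unevenly too: the filter took 50.5% of CR and 6.12% of obese resident MØs, 31.0% and 7.02% of other MØs, 29.3% and 18.5% of cycling MØs, and 7.08% and 2.14% of Fcgr4-high MØs. With no mitochondrial or UMI filter, the log2 ratio in this gate was 0.58 (0.52 to 0.63) for Gpnmb and 0.84 (0.77 to 0.91) for Mmp12, and over all MØs 0.0596 (0.0102 to 0.109) and 0.38 (0.32 to 0.44). With a looser limit of 5 MADs they stayed below 0, at -0.40 and -0.20 in the gate and -0.92 and -0.57 over all MØs. The other 5 genes kept their sign under all 3 settings. In the gate without the filter, Trem2 stood at -0.31, Tyrobp at -0.41, Cd9 at -0.19, Lgals3 at -0.43 and Capg at -0.31.

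**Figure D2:**
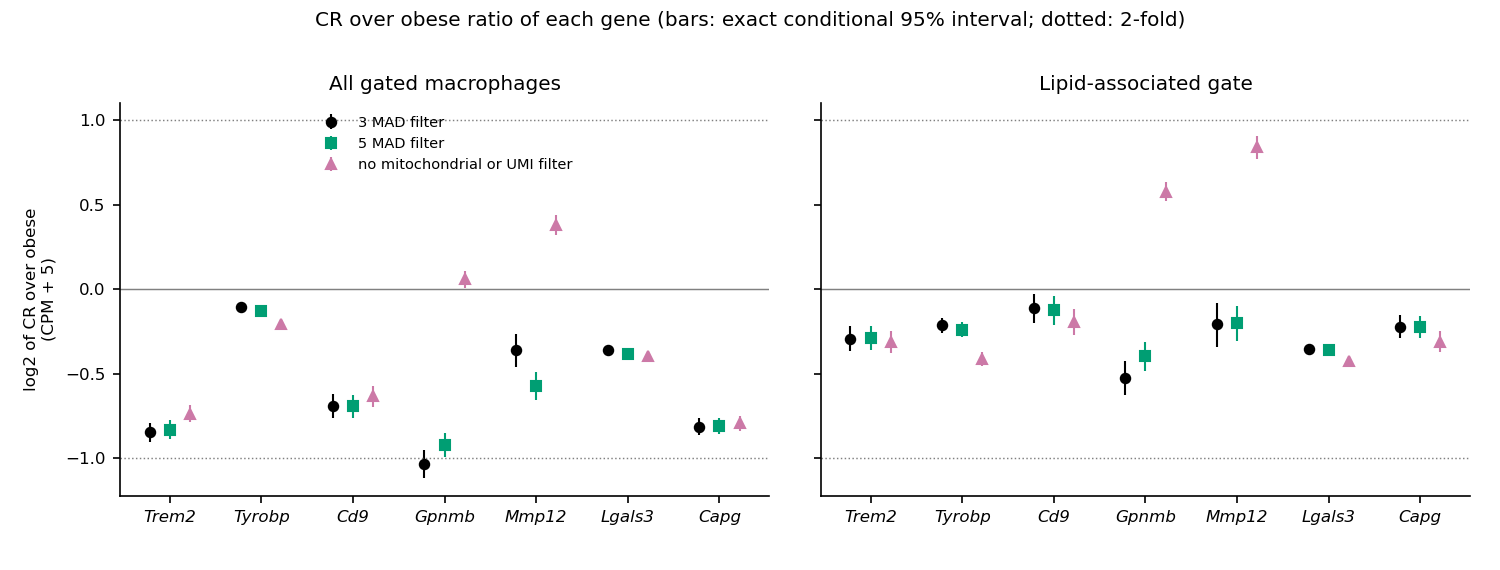
Log2 ratio of CR over obese (5 CPM added) for each gene over all gated MØs (left) and in the lipid-associated gate (right) with the 3 MAD filter (circles), the 5 MAD filter (squares) and no filter (triangles), bars being exact conditional 95% intervals. Only Gpnmb and Mmp12 cross 0, to 0.58 and 0.84 in the gate without the filter.

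The removed lipid-associated cells were rich in Gpnmb and Mmp12 and poor in Tyrobp. The 113 removed CR cells had 4795 CPM of Gpnmb, against 624 CPM in the 153 kept, and 3546 CPM of Mmp12, against 372 CPM. Their Trem2 was 1072 CPM, close to the 1133 CPM of the kept cells, and their Tyrobp 1316 CPM, against 3317 CPM. They had a median mitochondrial share of 13.7% and a median of 3433 UMIs, against 8090 UMIs in the kept cells. The 161 removed obese cells showed the same order, with Gpnmb at 3703 CPM against 899 CPM in the kept cells, and Tyrobp at 2335 against 3847 CPM. Their Mmp12 was 3038 CPM against 430 CPM, with 1143 of these UMIs in the 1 cell that had failed the UMI limit. RNA quality therefore moved with both genes, and whether the removed cells were damaged was not tested.

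When all cells of the gate were ordered by mitochondrial share and levels were taken over the remaining UMIs, Gpnmb and Mmp12 climbed in both libraries. In CR mice Gpnmb was 467 CPM at 0 to 2%, 834 at 2 to 4%, 2599 at 4 to 8%, 5136 at 8 to 16% and 8519 CPM at 16% or more. In obese mice it was 953, 1106, 1722, 3708 and 6476 CPM in these classes. Mmp12 ran from 160 to 6167 CPM across the classes in CR and from 370 to 3372 CPM in obese mice. Without the top obese cell of each class, Mmp12 in obese mice was 300, 503, 478, 1079 and 1986 CPM. Tyrobp was highest at 2 to 4% (3753 CPM in CR, 4247 CPM in obese) and lowest in the upper classes, at 1343 and 1070 CPM in CR and 1732 and 1886 CPM in obese mice. Trem2 stayed between 1015 and 1316 CPM in CR and between 1285 and 1527 CPM in obese mice in all 5 classes. The top class held 36 CR cells and 19 obese cells.

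Cells at 8% or more were set against those under 4% of the same gate. In CR mice (94 against 145 cells) Mmp12 was 3.58 and Gpnmb 3.32 log2 units higher, with only 3 and 6 of 3344 measured genes having a larger difference, while 22.5% of these genes were higher and 14.9% lower by 2-fold or more. In obese mice (83 cells at 8% or more) Gpnmb was 2.03 and Mmp12 2.01 higher, with 22 and 27 of 3401 genes above them and a background of 23.6% higher and 7.12% lower. Tyrobp was lower past 2-fold in both, at -1.45 in CR and -1.16 in obese mice. Trem2 (0.09 and -0.07), Cd9 (-0.29 and -0.24), Lgals3 (-0.30 and -0.47) and Capg (-0.37 and -0.28) stayed within 2-fold, where the median over all genes measured was 0.09 in CR and 0.35 in obese mice.

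**Figure D3:**
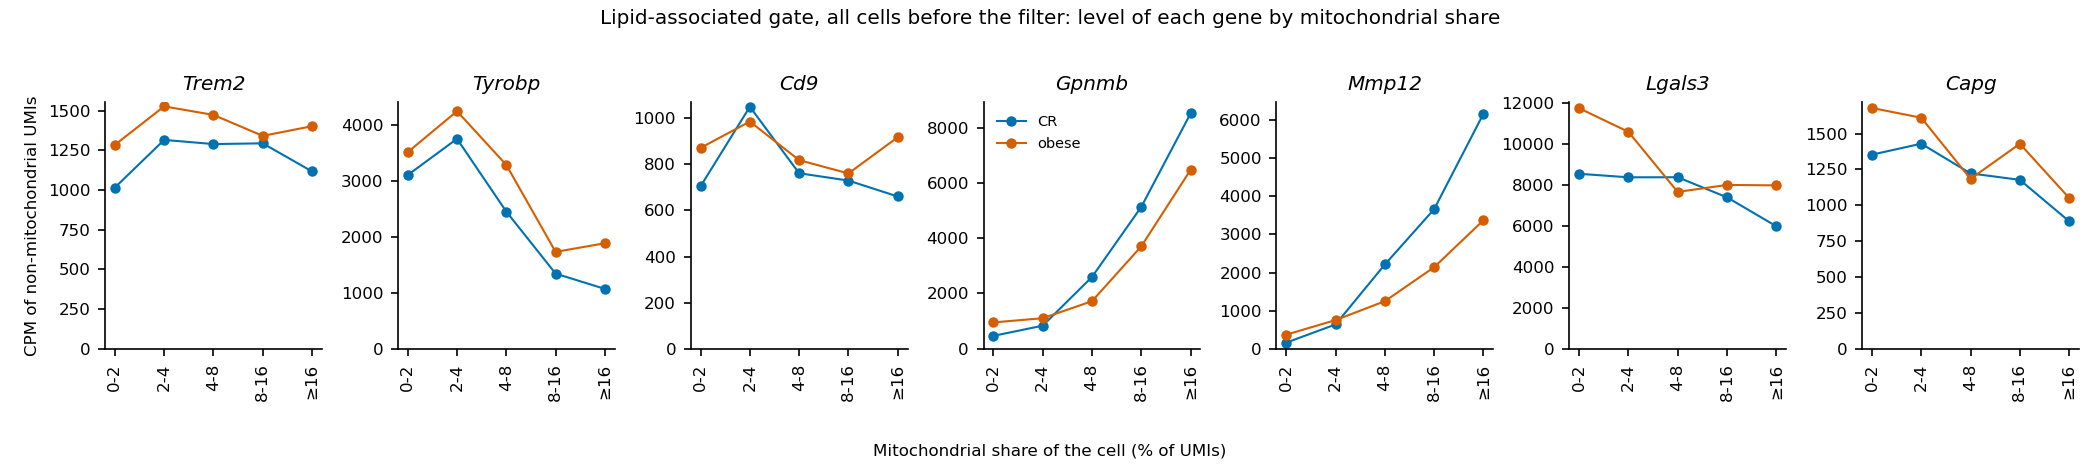
Level of each gene in CPM of non-mitochondrial UMIs against the mitochondrial share of the cell (% of UMIs, 5 classes) in the lipid-associated gate before filtering, CR in blue and obese in orange. Gpnmb reaches 8519 CPM in CR and 6476 CPM in obese mice in the top class, Mmp12 climbs with it, Tyrobp declines and Trem2 is nearly level.

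In the lipid-associated gate the CR over obese ratio changed sign along this axis. Gpnmb stood at -1.02 (-1.18 to -0.86) in cells at 0 to 2% and at -0.40 at 2 to 4%, but at 0.59, 0.47 and 0.40 in the 3 classes above. Mmp12 stood at -1.18 (-1.45 to -0.92) at 0 to 2% and at -0.24 at 2 to 4%, and at 0.82, 0.77 and 0.87 in the classes above. Tyrobp was below 0 in all 5 classes, from -0.18 to -0.82. Single cells set some of the Mmp12 values: the obese cell that failed the UMI limit held 1143 of the 3337 Mmp12 UMIs at 2 to 4%, and without it the ratio there was 0.34, and without the top cell of both libraries -0.04 (-0.22 to 0.13). At 4 to 8% the Mmp12 ratio was -0.05 without the top CR cell and 1.32 without both. The sign of Gpnmb held in all 5 classes without either top cell or both. In the 4 other MØ gates together, Gpnmb also climbed, from 64.3 CPM at 0 to 2% to 2666 CPM at 16% or more in CR (32 cells) and from 122 to 1264 CPM in obese mice (7 cells). The ratio of CR over obese showed no such change of sign there: Gpnmb was below 0 in the 4 classes to which both libraries gave 15 or more cells (-0.87, -0.70, -0.11 and -0.57), and Mmp12 alternated (-0.05, 1.16, -2.47 and 1.48). These pooled ratios mix gate sizes with levels and do not compare directly with those of 1 gate. Before the filter, Fcgr4-high MØs, low in Gpnmb, were 480 of 1198 CR and 187 of 2790 obese MØs.

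The 7 genes were also followed along the gate's own score, the sum of its 8 genes, over all kept MØs. From under 10 to 130 or more per 10000, Trem2 ran from 163 to 1661 CPM in CR and from 129 to 1803 CPM in obese mice. Gpnmb ran from 48.5 to 1396 CPM in CR and from 28.8 to 1981 CPM in obese mice, Capg from 251 to 1846 and from 524 to 2036 CPM, and Lgals3 from 2699 to 11397 and from 2000 to 16433 CPM. Trem2 was still at 289 CPM in CR and 626 CPM in obese mice just under the gate, at 40 to 60 per 10000, so the libraries differed more there than above the gate. These classes pool all MØ subtypes. Fcgr4-high MØs, low in Trem2 (112 and 116 CPM), made up 50% of CR and 7.36% of obese MØs. The part of this mix in the difference was not tested. In the top class the log2 ratio of CR over obese was -0.12 for Trem2, -0.50 for Gpnmb and -0.53 for Lgals3, but 0.21 for Cd9 and 0.26 for Mmp12. The top class held 40 CR and 179 obese cells, and 1 cycling CR cell held 198 of its 465 Mmp12 UMIs. Without that cell the Mmp12 ratio was -0.44, and without the top cell of both libraries -0.17 (-0.36 to 0.02).

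**Figure D4:**
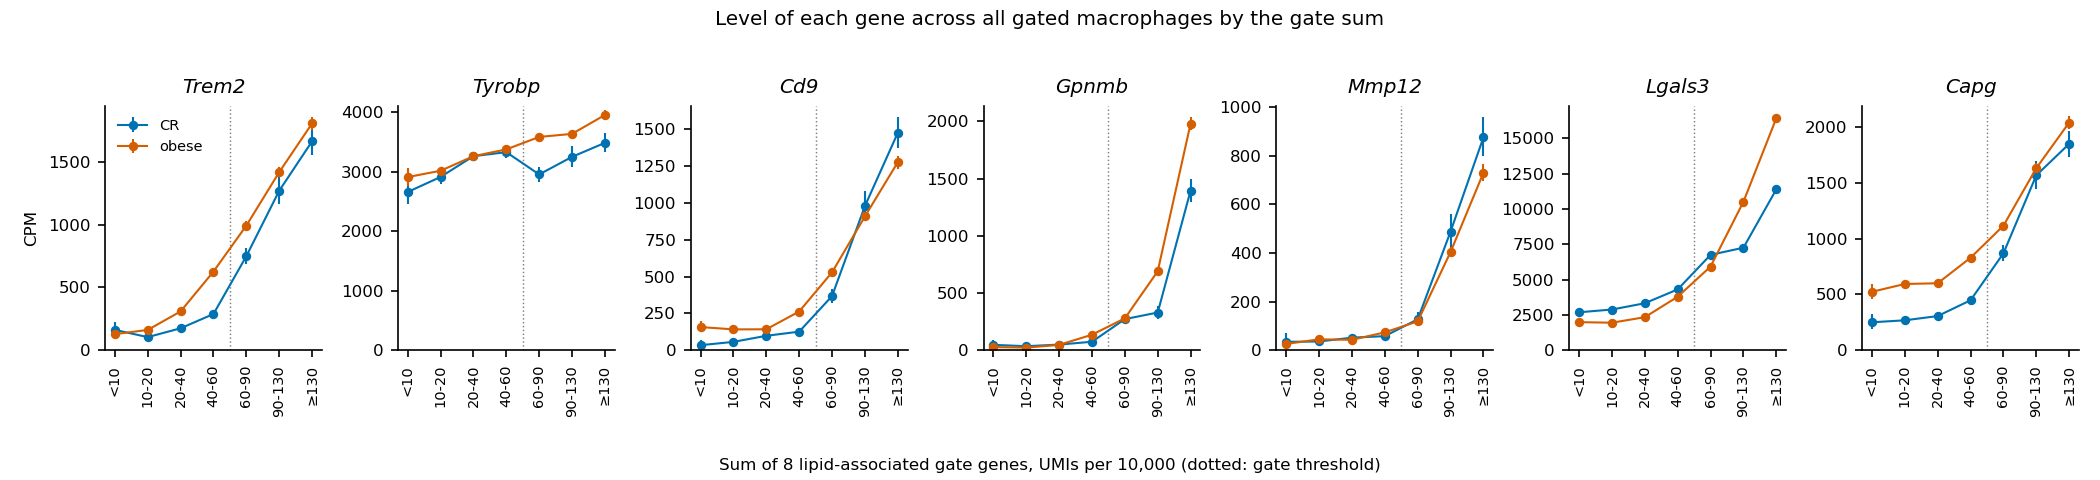
Level of each gene in CPM over all kept MØs by the sum of the 8 lipid-associated gate genes (UMIs per 10000, 7 classes), CR in blue and obese in orange, with exact 95% Poisson intervals and the gate threshold dotted. Trem2 reaches 1661 CPM in CR and 1803 CPM in obese mice in the top class, and Gpnmb and Mmp12 stay low until the gate is passed.

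Antigen presentation genes split the gate unevenly. MHC class II genes summed to under 300 per 10000 in 71.9% of CR lipid-associated MØs (110 cells) and in 37.2% of obese ones. Gpnmb was highest in these MHCII-low cells, at 766 CPM in CR and 1496 CPM in obese mice, against 274 and 406 CPM in the MHCII-high cells. Inside the MHCII-low cells the log2 ratio of CR over obese was -0.96 for Gpnmb, -0.63 for Lgals3, -0.48 for Trem2, -0.47 for Mmp12, -0.42 for Capg, -0.36 for Cd9 and -0.18 for Tyrobp. All but that of Tyrobp were thus further below 0 than in the undivided gate. Inside the MHCII-high cells they were -1.15 for Mmp12, -0.56 for Gpnmb, -0.29 for Tyrobp, -0.26 for Lgals3, -0.16 for Trem2, -0.14 for Capg and 0.12 for Cd9.

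To compare single cells at equal depth, each kept cell was thinned to 1500 UMIs, a number that all kept cells reached. Trem2 was then found in 58.2% (49.9 to 66.1) of CR and 76.1% (73.0 to 79.1) of obese lipid-associated MØs, and Capg in 64.7% (56.6 to 72.3) and 79.7% (76.7 to 82.5). T cells, with a median of 2674 UMIs in CR and 3314 in obese mice against 8090 and 9481 in the gate, had Trem2 in 6.48% and 5.92% of thinned cells, and Capg in 29.7% and 27.9%. Cd9 was found in 50.3% of CR and 59.9% of obese lipid-associated MØs (13.97% and 9.54% in T cells), Gpnmb in 31.4% and 37.1% (7.48% and 4.20%), and Mmp12 in 17.6% and 17.7% (6.48% and 3.05%). Tyrobp was found in 97.4% of CR and 98.6% of obese lipid-associated MØs and Lgals3 in 96.7% and 99.1%, which leaves no room for a difference, but T cells also showed Lgals3 in 52.6% and 50.2%. Before thinning, Trem2 was found in 83.0% of CR lipid-associated MØs.

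At least 5 of the 7 genes were found in 11.2% (9.22 to 13.5) of CR MØs and 25.2% (23.52 to 26.98) of obese MØs. If the genes had been scattered over MØs independently at their own rates, 4.84% of CR and 18.0% of obese MØs would have held 5 or more. Within the lipid-associated gate the share was 48.4% (40.2 to 56.6) in CR and 56.2% (52.6 to 59.8) in obese mice, where independence gave 37.5% and 58.2%. The mean number of genes per cell there was 4.16 in CR and 4.68 in obese mice, and all 7 were found in 9 of 153 CR and 52 of 763 obese cells. At 5 or more, obese lipid-associated MØs stood near the independent share and CR ones above it. At 6 or more both stood above it, at 17.6% in CR and 26.2% in obese mice against 10.0% and 20.1%. At 4 or more both stood below it, at 64.1% and 82.8% against 73.4% and 88.8%. All 7 were found in 5.88% and 6.82%, where independence gave 0.988% and 2.33%.

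The other gates listed here reached 5 of 7 less often than the lipid-associated gate. The share was 7.94% in CR and 12.6% in obese other MØs, 13.2% and 29.7% in cycling MØs, 5.88% and 4.35% in resident MØs, and 0.224% and 0.546% in Fcgr4-high MØs, the gate that made up 50% of CR MØs. Among monocytes it was 2.11% in CR and 1.47% in obese classical cells. T cells gave 0.249% in CR and 0.382% in obese mice and B cells 0.549% and 1.10%, so the values of patrolling monocytes (0.826% and 0.758%) were at the level of background.

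**Figure D5:**
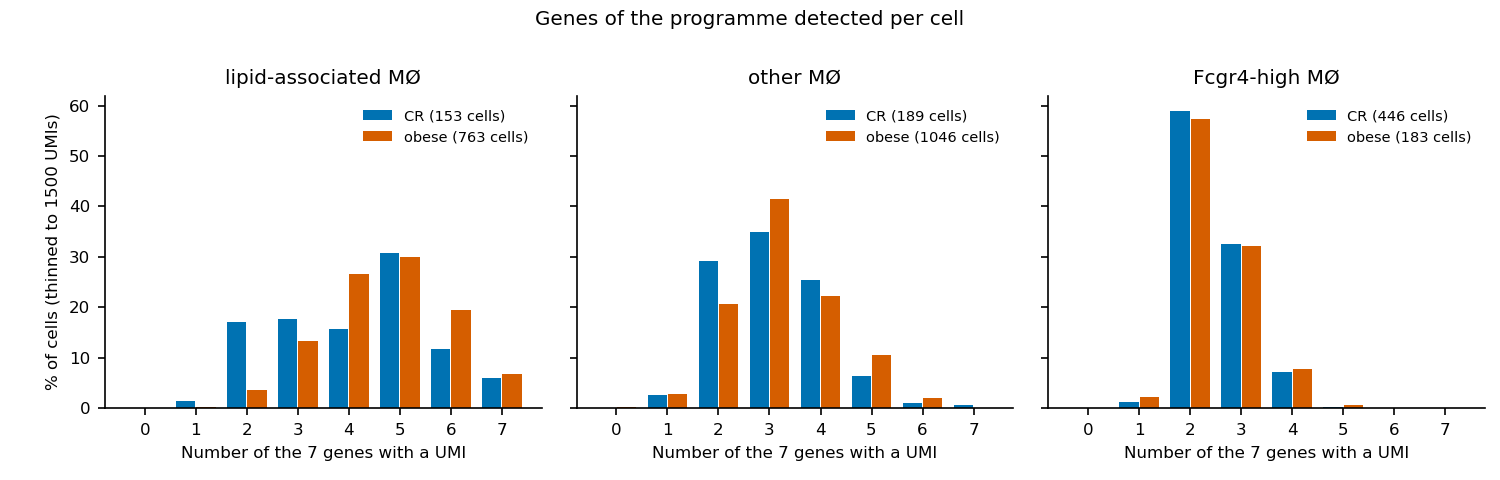
Share of cells (%) by the number of the 7 genes with at least 1 UMI after thinning to 1500 UMIs in lipid-associated (153 CR, 763 obese), other (189 and 1046) and Fcgr4-high MØs (446 and 183), CR bars left of obese bars. Lipid-associated MØs centre on 4 to 5 genes (mean 4.16 in CR and 4.68 in obese), with more CR cells at 2, and Fcgr4-high MØs on 2 to 3.

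Pairs of genes in the lipid-associated gate were found together slightly more often than the product of their single shares in 17 of 21 pairs in each library, with a median ratio of 1.03 in CR and 1.01 in obese mice. Pairs with Tyrobp or Lgals3, each found in nearly all of these cells, are held near a ratio of 1, so this count and these medians say little. Gpnmb and Mmp12 had the highest ratio, 1.53 in CR and 1.58 in obese mice. Gpnmb was found in 48.1% of CR and 58.5% of obese cells with Mmp12, against 27.8% and 32.5% of cells without it. Trem2 was found in 77.1% of CR and 86.6% of obese cells with Gpnmb, against 49.5% and 70% of those without. Trem2 with Cd9 gave 1.27 in CR and 1.06 in obese mice, and Trem2 with Capg 1.23 and 1.01. Trem2 with Mmp12 gave 0.955 and 1.04. A common gene such as Trem2 leaves less room for a high ratio than Gpnmb does, so these ratios cannot rank the 2 as partners of Mmp12.

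Outside the lipid-associated gate, none of the 7 passed 2-fold in 5 further gates. In other MØs all 7 were measured and none passed, from -0.24 for Trem2 to 0.41 for Mmp12, beside 0.0801% of genes lower and 1.52% higher by 2-fold or more. In resident MØs (0.368% lower, 1.95% higher) and Fcgr4-high MØs (1.05% lower, 1.27% higher), 5 of the 7 were measured and none passed. Fcgr4-high MØs came closest with Capg at -0.61 and Cd9 at -0.58, at levels below those of B and T cells, though Capg was above its level in cDC1. Classical monocytes (0.556% lower, 1.74% higher) had 5 measured and none past 2-fold, with Trem2 at 0.24 and Cd9 at 0.43, and cDC1 (0.248% lower, 0.579% higher) had only Tyrobp, Cd9 and Lgals3 measured and none past 2-fold.

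In DCs and the smaller gates, single cells decided several values. In cDC2, Trem2 was 35.2 CPM in CR and 169 CPM in obese mice, a log2 ratio of -2.11 (-2.69 to -1.56). Gpnmb stood at -1.25 and Capg at -1.17, which makes 3 of the 7 lower past 2-fold in a gate where 0.941% of genes were lower and 1.24% higher. Without the top cell of each library Trem2 stood at -2.15 and Capg at -1.14, but Gpnmb at -0.48, since 1 obese cell held 69 of its 138 UMIs. CR Trem2 was below the 44.0 CPM of CR T cells, and Capg, at 161 CPM in CR and 370 CPM in obese cDC2, was below the 471 and 624 CPM of B cells. It was above the 30.4 CPM of Capg in CR and 44.0 CPM in obese cDC1. The 8 lipid-associated gate genes summed to 938 CPM in CR and 1847 CPM in obese cDC2 and the MØ markers to 965 and 1135 CPM. Whether MØ RNA in the obese cDC2 gate had a part in this was not tested.

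Mmp12 in cycling MØs was 401 CPM in CR and 89.2 CPM in obese mice, a log2 ratio of 2.11 in a gate where 6.04% of genes were higher and 1.67% lower by 2-fold or more. One CR cell held 198 of the 220 UMIs, and without the top cell of each library the ratio was -0.76 (-1.39 to -0.17). In migratory DCs (42 CR and 64 obese cells) Mmp12, Capg and Lgals3 were higher past 2-fold, beside 5.68% of genes higher and 2.13% lower, with Mmp12 at 344 CPM in CR and 18.6 CPM in obese mice. One CR cell held 106 of the 113 Mmp12 UMIs, and without the top cells the log2 ratios were 0.33 for Mmp12, 0.33 for Lgals3 and 0.91 for Capg. Patrolling monocytes had Capg at 95.9 CPM in CR and 211 CPM in obese mice (-1.10, beside 3.63% of genes lower), both below the B cell level and above the cDC1 level. Their Mmp12 was 59.7 CPM in CR and 24.4 CPM in obese mice (1.14, beside 5.75% of genes higher), and T cells had 47.2 and 86.2 CPM, with 131 of the 186 UMIs of obese T cells in 1 cell.

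Many Mmp12 molecules lay outside all gates. In the obese library 44.0% of Mmp12 UMIs were in ungated cells, and its 2 top cells, with 906 and 678 Mmp12 UMIs, were ungated because their MØ markers summed to 36.7 and 28.2 per 10000, under the limit of 40. Their lipid-associated score was 182 and 176 per 10000. Taking ungated cells with at least 20 per 10000 of MØ markers and 60 per 10000 of the 8 genes, 22 CR cells held 197 of 522 ungated Mmp12 UMIs and 94 obese cells held 2549 of 3653. Their Mmp12 was 1427 CPM in CR and 2131 CPM in obese mice, above the 372 and 430 CPM of the gate itself.

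Relatives of the 7 genes were read in the same gate, by list. Of 28 other lipid-associated genes 26 were measured and 18 lay below 0, where 38.8% of all genes measured did, and 1 passed 2-fold (1.65% of genes higher, 0.196% lower): Spp1, the gene of osteopontin, at 1451 CPM in CR and 294 CPM in obese lipid-associated MØs (2.28). Spp1 is one of the 8 gate genes, and all 8 are in this list, so the count is not independent of the gate. Their sum in the gate was alike, 11473 CPM in CR and 11385 CPM in obese mice, so more Spp1 leaves less for the rest. Of the gate genes, Lpl (2939 CPM in CR, 3254 CPM in obese), Plin2 (3051 and 3128 CPM) and Cd63 (2672 and 3048 CPM) differed less than Spp1. Of 20 genes of the TREM family and its signalling 9 were measured, 8 of them above 0 with a median of 0.41, among them Ms4a6d (0.83), Ptpn6, a phosphatase that restrains such signals (0.74), and the adaptor Fcer1g (0.45). None passed 2-fold. Of 15 receptors that pair with Tyrobp 4 were measured, and Sirpb1a passed 2-fold (2.02).

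The remaining families were small. Among 12 tetraspanins 8 were measured with a median of -0.11 and none past 2-fold, and among 11 gelsolin family genes 7 were measured, Gsn highest at 0.53. Of 7 galectins, Lgals1 (-0.29) and Lgals3bp (0.23) were measured. Of 13 metalloproteinases and inhibitors, Mmp19 (-1.18) passed 2-fold and Timp2 (0.05) did not. None of 4 MiT/TFE factors reached the minimum to be measured.

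Over all MØs, where the lipid-associated gate was smaller in CR mice, 27 of the 28 other lipid-associated genes were measured and 19 lay below 0, with 2 lower and 5 higher past 2-fold, where 35.8% of all genes measured lay below 0, 0.953% were lower and 5.02% higher. The lower were Atp6v0d2 (-1.04) and Cd36 (-1.02), and the higher were Acp5 (1.76), Hvcn1 (1.48), Itgax (1.44), Spp1 (1.39) and Fabp4 (1.21), of which Atp6v0d2, Acp5 and Spp1 are gate genes. Cd36 and Fabp4 are named here after their values were seen. Among the receptors that pair with Tyrobp, 3 of the 6 measured were higher, namely Sirpb1a (2.80), Sirpb1b (2.21) and Pilrb1 (1.13), while Tyrobp itself stood at -0.11. Near-identical Sirpb1 copies can share reads, so their separate values are uncertain.

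Genes whose level was most like each of the 7 were ranked by Pearson's r of log2(CPM + 5) over 25 gate and library points among 4883 genes. The points share libraries and depth, so r is a description. Trem2 was most like the lysosomal proteases Ctsl (0.96) and Ctsb (0.94) and the lipid scavenger receptor Cd36 (0.94), Tyrobp like Metrnl (0.93), Rnf130 (0.91) and Fcer1g (0.91), and Lgals3 like the lysosomal acid lipase Lipa (0.91), Tbcb (0.90) and Plin2 (0.90). Gpnmb was most like Atp6v0d2 (0.93), a proton pump subunit and gate gene, Cpe (0.91) and Syngr1 (0.88). Mmp12 was most like Cpe (0.86), the protease Ctsk (0.85) and 2010111I01Rik (0.79), and Capg like Tex264 (0.85), Glmp (0.83) and Cd84 (0.83). Cd9 had no close companion, Alcam coming first at 0.70, then Anpep (0.67) and Anxa7 (0.66). Among the 7 themselves Gpnmb and Mmp12 were most alike (0.86), then Trem2 and Gpnmb (0.81), and Cd9 and Capg least (0.02). Some points for Mmp12 rest on 1 cell, as in CR cycling MØs, where 1 cell held 198 of 220 UMIs, so its r values are uncertain.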

How the data were processed

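The deposited matrices hold raw UMI counts per gene and cell that the authors made with Cell Ranger 2.2 against mm10 from Chromium 3′ chemistry version 2. They were used as counts with no further normalization by the authors. The 7 genes, the marker and gene lists and the comparisons were chosen with earlier results of these data known, and gate limits, the MHCII split and the classes of mitochondrial share were set after summed marker levels had been viewed. The study removed high outliers of mitochondrial share and UMIs without stating limits, and 3 scaled MADs above the library median and at least 200 genes per cell were used here. Doublets were left in, and the 5% of cells with the highest Scrublet scores (scanpy 1.11.5) were left out as an alternative. Cells that met the cycling gate were placed there first, then in the lipid-associated, resident and Fcgr4-high gates. Of the marker symbols 3 were not matched.

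Counts were summed per gate and library and given as CPM with exact Poisson intervals. Log2 ratios of CR over obese added 5 CPM to each side, with exact conditional intervals. A gene counted as measured from a joint total of 20 UMIs over both libraries and 50 CPM in 1 of them, and called past 2-fold. Shares have Clopper-Pearson intervals. With 1 library per group no test was run. Named genes were the 7, the 4 largest ratios of each of 8 lists, the 3 most alike genes of each of the 7, and gate genes. Other genes are named to define gates, and the cells and classes singled out by Mmp12 or mitochondrial share were chosen after their values were seen. Sequences are from the RefSeq tables for GRCm38 and gene positions from GENCODE M21. Computation used Python 3.11.15, numpy 2.4.6, scipy 1.17.1 and pandas 2.3.3, and was tested on simulated data. Values without the top cell of a gene were added after its values were seen.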

Additional observations from a re-analysis of the deposited data

How the results depend on the processing

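No paired analysis was possible because each group has 1 library. Trem2, Tyrobp, Lgals3 and Capg lay below 0 in CR, over all MØs and in the lipid-associated gate, under all 23 alternatives, Trem2 from -1.03 to -0.74 over all MØs and from -0.56 to -0.16 in the gate. The count of the 7 genes lower past 2-fold in the gate was 0 in all 23, and over all MØs, 1 as reported, it was 0 with no filter, 5 MADs, gate limits times 1.5, gating after thinning, a pseudocount of 20 CPM or per-cell CPM means, and 2 (Trem2 and Gpnmb) with TMM factors, which shifted every ratio by -0.18 over all MØs and by -0.14 in the gate. Gpnmb over all MØs reversed to 0.0596 with no filter, and Mmp12 in cycling MØs to -0.76 without its top cell, an alternative chosen after seeing the data. With gate limits times 1.5, Cd9 (0.15) and Mmp12 (0.06) were above 0 in the gate. The gate's share of MØs in CR and in obese mice was 22.2% and 33.1% with no filter, 36.6% and 46.2% with limits times 0.67, 8.11% and 17.1% with limits times 1.5, 20.98% and 34.1% gated after thinning, and 10.9% and 26.8% with the Fcgr4-high and resident gates first. The share of MØs with 5 of 7 genes was 16.4% in CR with no filter, 7.06% and 15.6% in CR and obese mice thinned to 1000 UMIs, 18.6% and 36.8% at 2500 UMIs, and 35.4% and 61.9% with no thinning. At least 4 of 7 gave 25.0% and 48.0%, and at least 6 of 7 gave 3.81% and 9.77%. The cause of these shifts was not tested. Shares of cells near those in T cells cannot be read as expression at this depth.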
